A study of Homo sapiens with 14 samples.

Results

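P12-ICHIKAWA and TALL-1 are 2 of the 7 T-cell acute lymphoblastic leukemia (T-ALL) cell lines grown for 6 h in the presence of the PI3K inhibitor AS605240 (a small molecule) or vehicle. They were chosen by cell line label and treated as one group, and gave 4 of the 14 HG-U133 Plus 2.0 arrays, 1 per line and treatment. The other 10 arrays were of CCRF-CEM, HPB-ALL, Jurkat, Molt-4 and ALL-SIL, again 1 with AS605240 and 1 with vehicle for each line. Every line received its own IC50 concentration of AS605240. Those of P12-ICHIKAWA and TALL-1 were the highest and close to each other, and that of Molt-4 was only slightly lower. Dose was fixed by line, so cell line and dose cannot be told apart. A cell line is an established culture of leukemic T-cell precursors, and each treatment of a line has 1 array, so the spread measured is that between lines.

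The labels name P12-ICHIKAWA and TALL-1 as different lines, yet their arrays were near-identical. Between the vehicle arrays of the 2 lines 42 genes of 19775 differed by more than 2-fold, and the median absolute difference was 0.13 on the log2 scale. In the other 20 pairs of lines 1302 to 2617 genes differed by more than 2-fold, with medians of 0.19 to 0.31. The arrays do not tell whether the cultures were independent, so the 4 arrays were counted as 1 entity against the other 5 lines. In an exact permutation test of 1 entity against 5 lines the smallest p is 0.1667, so all tests below were fitted across all genes with limma.

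All levels below are log2(signal + 16) of the brightest probe set of a gene, on which a signal near 0 gives 4, and differences and changes are on the same scale. A fold is that of signal + 16, so it understates differences of dim genes. Since the arrays were made from bulk RNA, fewer cells of a type and less RNA per cell cannot be told apart.

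PI3K turns on AKT and mTOR, which drive protein synthesis, glucose use and growth, and keep FOXO transcription factors out of the nucleus. When PI3K is blocked, FOXO factors can turn on genes of quiescence and lymphocyte homing such as KLF2 and S1PR1. T-ALL lines carry different oncogenic transcription factors, among them TAL1, LMO2, TLX1 and TLX3, and are arrested at different stages of thymocyte development.

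The T-cell label held for P12-ICHIKAWA and TALL-1. All 11 measured T-cell markers, from CD3D to BCL11B, had a signal over 50 on all 4 arrays, and their summed signal was 11926 to 13500 against 7825 to 18377 in the other lines. Of the B-cell markers 2 of 10 passed this level on all 4 arrays (CD79A and IGLL1), while MS4A1, PAX5, EBF1 and CD22 passed it on none. Of the myeloid markers 1 of 11 did (LYZ) and MPO, CD14 and CEBPA did not. Of the NK-cell markers NKG7 and PRF1 did, of the erythroid and megakaryocyte markers HBB did, and of the epithelial and fibroblast markers KRT8 and COL1A1 did. The summed signal of the 7 erythroid and megakaryocyte markers was 218 to 265 against 164 to 218, with KLF1, GATA1 and ALAS2 not over 50 on any of the 4 arrays. Among stem and progenitor markers SPINK2 was at 8.95 to 9.63 on the 4 arrays and at 4.0 to 8.22 on the others, with CD34, KIT and FLT3 not over 50 on any of the 4. The summed signal of the 9 stem and progenitor markers was 554 to 841 against 58 to 879 in the other lines.

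The question of the first comparison was which genes set P12-ICHIKAWA and TALL-1 apart, with and without the drug. In limma over 6 units (the mean of the 4 arrays and the mean of each other line), 9 genes were higher and 1 was lower by more than 2-fold with an adjusted p below 0.05, 0.0455% and 0.00506% of the genes tested. The pair is 1 unit, so the spread of this test is that between the other 5 lines. The 9 higher genes were at 4.0 to 5.95 in those lines, where the offset narrows the spread (SD 0.04 to 0.20). Large differences of genes with more spread there, such as TRIM44 (-5.39) and FEZ1 (6.55), did not pass. At an unadjusted p under 0.05, 410 genes were higher and 563 lower. All 4 arrays lay above the 10 others in 739 genes (3.74%) and below them in 819 genes (4.14%). By more than 2-fold as well, these were 227 (1.15%) and 291 genes (1.47%).

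RHEX (C1orf186), a membrane protein known as a regulator of erythropoietin receptor signaling in erythroid cells, had the largest difference of all called genes. It was at 14.10 and 14.03 in P12-ICHIKAWA with vehicle and AS605240, at 14.84 and 14.79 in TALL-1, and at 5.06 to 5.57 on the 10 other arrays. The 4 arrays were thus far above all others, by 9.18 ± 0.18 (SE; adjusted p = 3.0e-04, limma, 5 other lines), or 579-fold on the signal + 16 scale. A second RHEX probe set separated the groups too, at 7.24 to 7.90 against 4.0 to 5.32, and another at 4.86 to 5.05 against 4.38 to 4.86 remained near the floor.

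GFRA4, a co-receptor for neurotrophic factors of the GDNF family, was at 9.61 and 10.78 in P12-ICHIKAWA and at 10.01 and 11.33 in TALL-1, against 4.08 to 4.78 in the other lines. The difference was 6.14 ± 0.21 (SE; adjusted p = 0.0015, limma), and the AS605240 array was the higher one in both lines. A second GFRA4 probe set, near the floor, separated the groups by less (4.67 to 5.47 against 4.0 to 4.37).

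PEG10, an imprinted gene derived from a retrotransposon, and SGCE (epsilon-sarcoglycan), its imprinted neighbour, were both expressed in P12-ICHIKAWA and TALL-1 and at the floor in the other lines. PEG10 was at 9.69, 9.67, 9.34 and 9.24 on the 4 arrays and at 4.0 to 4.25 on the others (5.40 ± 0.13, SE; adjusted p = 4.7e-04, limma). SGCE was at 7.51 to 7.67 against 4.0 to 4.36 (3.44 ± 0.16, SE; adjusted p = 0.0051, limma). On chromosome 7 (GRCh38.p14) SGCE spans 94584980 to 94656133 and PEG10 spans 94656325 to 94669695, 192 bases apart. The genes around them showed no such difference: CASD1 was at 8.13 to 8.51 against 7.74 to 8.72, and COL1A2 and PPP1R9A were near 5 in both groups.

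The other called genes were TENM1 (teneurin 1, a neuronal adhesion protein, 10.29 to 11.05 against 5.39 to 5.95), the non-coding RNA LINC02405 (9.38 to 10.62 against 4.86 to 5.23), NTM (neurotrimin, an adhesion molecule of the immunoglobulin family, 7.25 to 9.14 against 4.41 to 4.74), ANKFN1 (6.89 to 7.61 against 4.0 to 4.44) and AGBL1 (5.46 to 6.35 against 4.0 to 4.21). Dimmer probe sets of NTM overlapped near the floor (4.32 to 4.77 against 4.0 to 4.455, and 4.67 to 4.89 against 4.73 to 5.21). So did those of ANKFN1 (4.53 to 4.70 against 4.48 to 4.98, and 4.48 to 4.75 against 4.34 to 5.00). A dimmer probe set of TENM1, near the floor, separated the groups by less (4.66 to 4.86 against 4.0 to 4.51). The call of AGBL1 was the weakest of the 9 (adjusted p = 0.020, limma) and was lost when any 1 of the other 5 lines was left out (adjusted p 0.085 to 0.13). FEZ1, which takes part in axon outgrowth and transport, was at 13.23 to 13.997 and did not pass (adjusted p = 0.43, limma), with the Molt-4 array with AS605240 at 11.50 and the remaining arrays of the other lines at 6.57 to 6.73. A dimmer FEZ1 probe set overlapped (4.95 to 5.32 against 4.87 to 5.30).

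ACTN1 (alpha-actinin 1, which cross-links actin filaments) was the 1 gene called lower. It was at 4.93, 5.28, 4.83 and 5.02 on the 4 arrays and at 8.58 to 9.44 on the others, a difference of -3.99 ± 0.28 (SE; adjusted p = 0.031, limma). The next ACTN1 probe sets were lower without overlap (4.73 to 5.00 against 7.48 to 8.5, and 4.10 to 4.37 against 6.66 to 7.67), and a dimmer one overlapped. The call was lost without CCRF-CEM (adjusted p = 0.11), HPB-ALL (0.077), Jurkat (0.14) or Molt-4 (0.17).

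Other negative differences without overlap, some of them larger than that of ACTN1, did not pass the test. TRIM44, a tripartite motif protein of protein turnover, was at 4.06, 4.0, 4.15 and 4.15 in P12-ICHIKAWA and TALL-1, the floor of the scale, and at 8.59 to 9.88 in the other lines (adjusted p = 0.11, limma). A second TRIM44 probe set gave 4.10 to 4.38 against 7.83 to 9.31, and a dim one overlapped. N-cadherin (CDH2) was at 4.02 to 4.52 against 7.07 to 9.28, the biliverdin reductase BLVRA at 4.33 to 4.64 against 7.5 to 9.20, ZNF593 at 4.0 to 4.47 against 7.35 to 8.94, the apoptosis inhibitor FAIM at 4.0 to 4.51 against 7.11 to 9.29 and the LIM-only protein LMO4 at 4.16 to 4.34 against 7.03 to 8.64. The splicing factor HNRNPL, DENND5A and FAM171A1 differed by -4.13, -3.96 and -3.53, with wide ranges in the other lines.

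**Figure D1:**
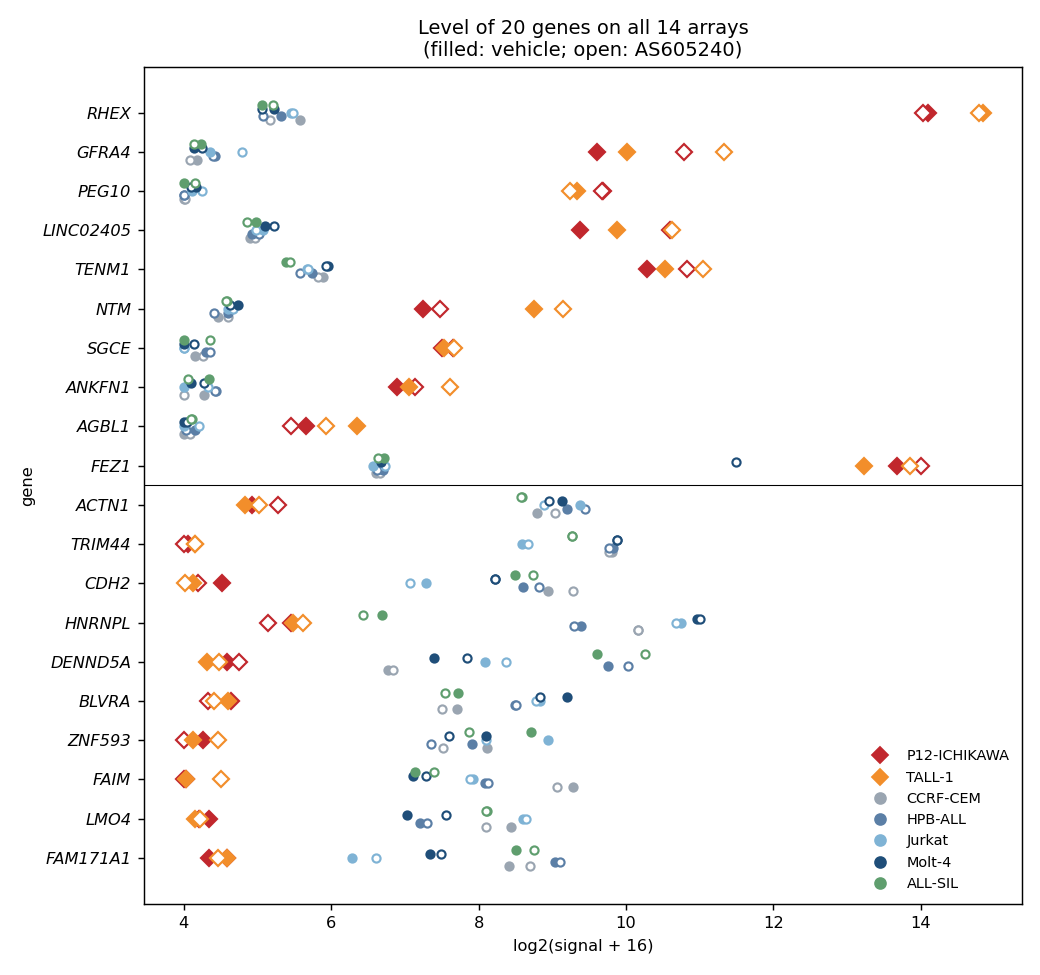
Level, as log2(signal + 16), of the 9 genes called higher with FEZ1 (top), and of ACTN1, called lower, with 9 of the largest negative differences among genes that did not overlap and were not called (bottom), on each of the 14 arrays. Diamonds are P12-ICHIKAWA and TALL-1, circles the other 5 lines, filled for vehicle and open for AS605240; RHEX lies above 14 in the 4 arrays and below 6 in the 10 others, and TRIM44 lies at the floor of 4 in the 4 arrays.

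The T-ALL oncogenes were examined next, to place the pair among the known subtypes. LMO2, a LIM-only protein that scaffolds TAL1-type transcription complexes, was at 8.60 and 9.32 in P12-ICHIKAWA and at 8.38 and 9.14 in TALL-1, above the 10 other arrays (4.06 to 8.10). The nearest was the vehicle array of CCRF-CEM at 8.10, and the difference did not pass the test (3.40 ± 1.49, SE; adjusted p = 0.99, limma). TAL1 was at 4.07 to 4.39 in the pair and reached 10.12 in another line, TLX1 was at 4.0 on all 4 arrays, TLX3 at 4.69 to 4.86, MEF2C at 4.0 to 4.26, and LYL1 at 4.49 to 5.32. None of these 5 was thus highly expressed beside LMO2.

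Of 39 measured T-ALL transcription factors 5 lay above (LMO2, BCL11B, IKZF1, WT1 and PHF6) and 2 below (TCF12 and ID1) on all 4 arrays, with none called and a list median of -0.05 against -0.02 for all genes. BCL11B, which commits precursors to the T lineage, was at 10.26 to 10.74 against 9.59 to 10.15. The E protein TCF12 was at 9.02 to 9.68 against 9.99 to 10.84. Of 43 T-cell stage and receptor genes CD69, LCP2 and PTPRC lay above and the phosphatase PTPN6 below (6.03 to 6.45 against 7.54 to 9.97). CD3D (11.92 to 12.04) lay within the range of the other lines, as did CD1A, a marker of cortical thymocytes (8.33 to 9.35), and CD4 (6.80 to 7.16), while CD8A (4.07 to 4.66) and the IL-7 receptor IL7R (4.13 to 4.39) were near the floor.

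Among 28 Notch receptors and targets NOTCH3 (5.51 to 6.37 against 6.65 to 8.71) and MYC (10.25 to 10.43 against 10.79 to 11.51) lay below the other lines, and NOTCH1 (8.16 to 8.54) overlapped with them. In the 39 PI3K and mTOR genes AKT1 (8.21 to 8.45 against 8.69 to 9.20) and the mTOR target EIF4EBP1 (5.87 to 6.62 against 7.62 to 10.32) lay below, and GSK3A lay just above (7.96 to 8.21 against 7.68 to 7.95). The adhesion list of 30 genes held ITGA6 and JAM3 above, and ITGB1, CD99 and CDH2 below. None of these genes passed the adjusted test, and counts of 1 to 5 genes per list are to be read against the 3.74% and 4.14% of all genes that lay above or below.

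Several genes that separated the pair were neighbours in the genome. Genes with a mean level over 6 (9236 genes) were put in order of their GRCh38.p14 positions, and windows of 10 genes were scanned for those with all 4 arrays on 1 side of the others, which holds for 7.52% (below) and 4.5% (above) of these genes. These windows were chosen after their values were seen, so they are a description. Of the best window for each chromosome and direction, 6 had more than 5 of the 10 genes on 1 side. On chromosome 12 (989959 to 3753109) 8 of 10 lay below, among them FOXM1 and ITFG2, and on chromosome 9 (134135199 to 136410614) 8 of 10 lay below, among them WDR5 and CAMSAP1. On chromosome 10 (3137727 to 6117447) 7 of 10 lay below, with KLF6 the largest at -2.25, and on chromosome 15 (33851781 to 34988287) 7 of 10, with AVEN at -1.54. On chromosome 19 (56595302 to 57612722) 8 of 10 lay above, all zinc finger genes such as ZNF264, ZNF550 and ZNF805, by 0.60 to 1.17.

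The sixth window lay on chromosome 11 (34051731 to 36510272) and began next to LMO2 (33858576 to 33892076). CAPRIN1, APIP, PDHX, TRIM44, COMMD9 and TRAF6 all lay below the other lines. From the mean of the other lines CAPRIN1 differed by -0.81, APIP by -0.75, PDHX by -0.92, COMMD9 by -1.40 and TRAF6 by -1.31, and TRIM44, with 1770699 bases between it and LMO2, by -5.39. Of the remaining 4 genes of the window NAT10 and CAT differed by -0.91 and -0.69 with some overlap, and EHF and CD44 overlapped too. LMO2, at the edge of this run, was the 1 gene of the 20 measured from LMO2 to RAG1 that lay above. DNA copy number was not measured on these arrays, and its part in these levels was not tested.

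**Figure D2:**
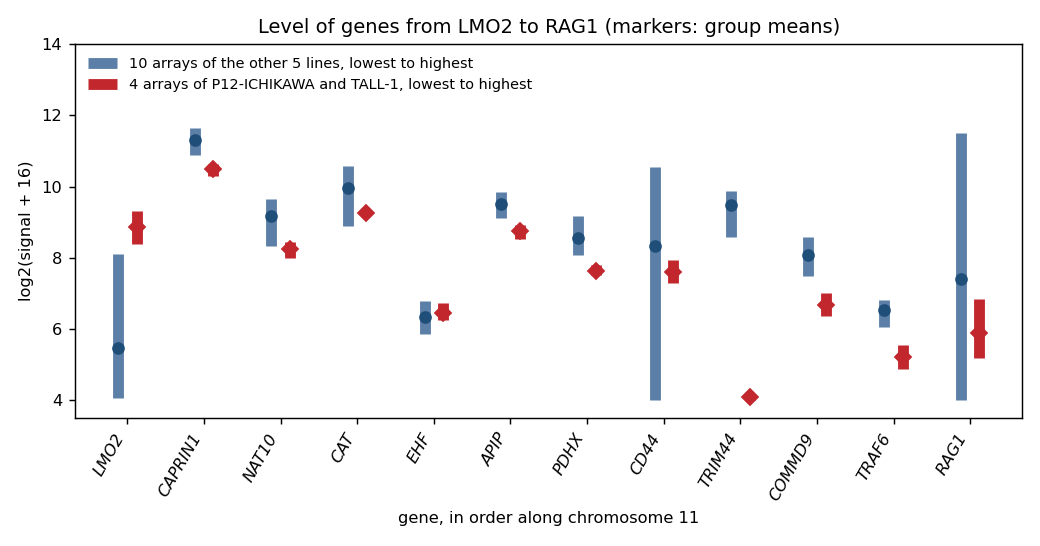
Level, as log2(signal + 16), of LMO2, RAG1 and the genes between them with a mean level over 6, in their order on chromosome 11. Red bars span P12-ICHIKAWA and TALL-1 (4 arrays), blue bars the 10 arrays of the other lines, and markers are group means; LMO2 is higher in red, and CAPRIN1, APIP, PDHX, TRIM44, COMMD9 and TRAF6 are lower without overlap.

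On the long arm of chromosome 11, SNX19, a sorting nexin, was at 4.0 to 4.34 on the 4 arrays and at 6.21 to 7.62 on the others, while NTM, 454136 bases further, and the junction protein JAM3 (10.40 to 11.40 against 6.46 to 9.43) were higher. RHEX (206053173 to 206102449), IL10 (206767602 to 206772494) and FCMR (206903317 to 206923196) lie on chromosome 1 with 665153 bases between RHEX and IL10 and 130823 between IL10 and FCMR. Of 13 genes measured from RHEX to FCMR, RHEX and IL10 lay above the other lines and none lay below.

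P12-ICHIKAWA and TALL-1 were not fully identical. In 6 genes they differed by more than 2-fold the same way with vehicle and with AS605240. CHPF, a chondroitin polymerizing factor, was at 6.52 and 6.46 in P12-ICHIKAWA and at 4.90 and 4.97 in TALL-1, and STK11IP, with 54048 bases between the genes on chromosome 2, was at 8.85 and 9.12 against 7.5 and 7.97. The third gene higher in P12-ICHIKAWA was MS4A14 (7.01 and 6.86 against 5.70 and 5.74). NTM, CEP192P1 and ATXN1-AS1 were higher in TALL-1, NTM by 1.5 with vehicle and by 1.67 with AS605240. The costimulatory receptor CD28 was higher in TALL-1 too (9.36 and 9.62 against 8.08 and 8.70). ADM (adrenomedullin) was higher in P12-ICHIKAWA by 1.53 with vehicle and by 0.92 with AS605240, and BHLHE40, a transcription repressor, by 1.09 and 0.94. With 1 array for each value these differences have no replicate check.

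The second comparison asked what AS605240 changed within P12-ICHIKAWA and TALL-1. In limma on the 4 arrays with the cell line as a block, 461 genes were higher and 290 lower after AS605240, counting genes whose adjusted p was below 0.05 and whose fold exceeded 1.5 (2.33% and 1.47% of all genes), a share of 61.4% higher. Centring of the arrays on their medians gave 322 and 456, a share of 41.4% higher. The median level of the arrays had risen by 0.06 and 0.09 in the 2 lines. Centring moved the median change of all genes from 0.02 to -0.06. The offset decided the calls: with an offset of 4 in place of 16 no gene was called. The spread behind these p-values is that between 2 near-duplicates, which may be technical. Without P12-ICHIKAWA, with the spread of the remaining 6 lines, 121 genes were higher and 41 lower, and without TALL-1 194 and 165. The hybridization controls, spiked in after labelling, changed by -0.46 in P12-ICHIKAWA and by 0.18 in TALL-1, against 0.04 to 0.18 in the other lines, and their part in the changes was not tested.

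Across the 751 called genes the change was larger in P12-ICHIKAWA in 456, the median absolute difference between the 2 changes was 0.15, and 1 gene differed by more than 2-fold in its change. This gene was ANXA2R, which rose by 2.36 in P12-ICHIKAWA (4.57 to 6.92) and by 1.03 in TALL-1 (6.31 to 7.33).

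**Figure D3:**
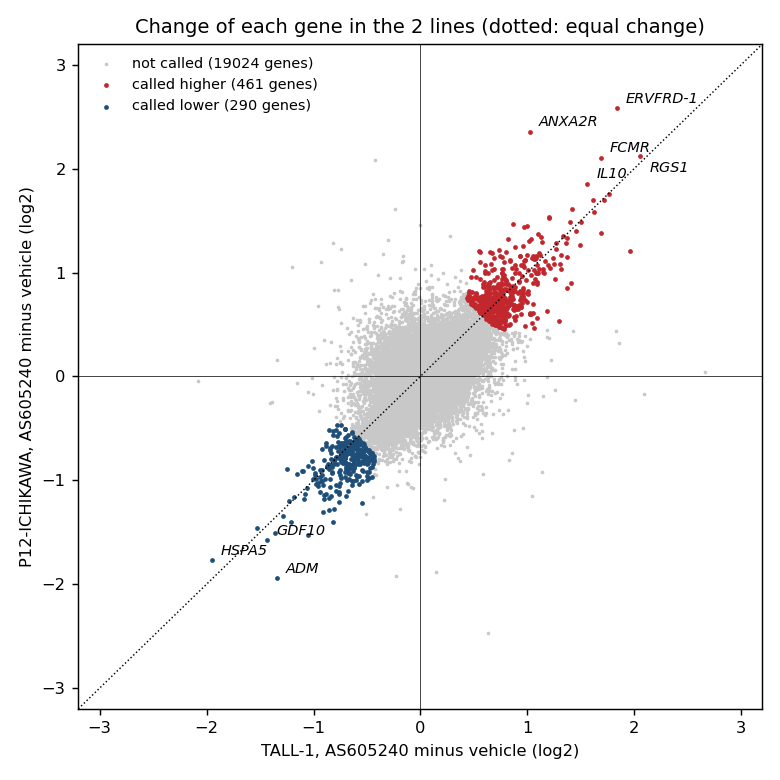
AS605240 minus vehicle (log2) of each of 19775 genes in P12-ICHIKAWA (vertical axis) against TALL-1 (horizontal axis), with the 461 genes called higher in red, the 290 called lower in blue and the line of equal change dotted. The called genes lie along that line, as the test requires, from HSPA5 and ADM at the lower left to ERVFRD-1 and RGS1 at the upper right.

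The largest decrease was that of HSPA5 (BiP), the main chaperone of the endoplasmic reticulum, from 10.83 to 9.05 in P12-ICHIKAWA and from 11.04 to 9.08 in TALL-1 (-1.86 ± 0.11, SE; adjusted p = 0.0079, limma). MANF, a secreted factor of the same stress response, fell from 9.91 to 8.45 and from 10.11 to 8.58. ADM, a vasodilator peptide induced by hypoxia, fell from 9.55 to 7.61 and from 8.02 to 6.68, and BHLHE40 from 9.20 to 7.70 and from 8.11 to 6.76. The growth factor GDF10 fell from 7.30 to 5.72 and from 6.63 to 5.20. CCDC86 and PNO1, both nucleolar, fell by 1.32 and 1.31, and USH1C (harmonin) fell by 1.29 to levels near the floor. In the other lines changes reached -1.63 for BHLHE40 (Jurkat), -1.43 for CCDC86 (HPB-ALL) and -1.32 for PNO1 (ALL-SIL). Both changes of HSPA5, MANF, ADM, GDF10 and USH1C in the pair lay below all other lines. For ADM the margin was slight, with -1.34 in TALL-1 and -1.32 in Jurkat. HSPA5 changed by -1.77 and -1.95 in the pair and by -1.56 in Molt-4. None of these genes passed the test of the response difference given below. Without the block ADM, GDF10 and BHLHE40 were not called (adjusted p 0.064 to 0.18, limma), and without P12-ICHIKAWA ADM, BHLHE40 and USH1C were not (0.068 to 0.17).

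The largest increase was that of ERVFRD-1 (syncytin-2, an endogenous retroviral envelope gene best known from placenta), from 4.45 to 7.03 in P12-ICHIKAWA and from 4.2 to 6.04 in TALL-1. RGS1, which dampens chemokine receptor signaling, rose from 5.36 to 7.48 and from 5.39 to 7.45. FCMR, the Fc receptor for IgM, rose from 7.10 to 9.20 and from 7.28 to 8.97, and ABTB1 from 6.49 to 8.25 and from 6.27 to 8.04. KLF2, the FOXO-regulated factor of T-cell quiescence, rose from 5.41 to 7.10 and from 5.88 to 7.60, and FBXO32 (atrogin-1), a ubiquitin ligase induced by FOXO, from 4.96 to 6.67 and from 5.15 to 6.76. In the other lines changes reached 2.61 for RGS1 (HPB-ALL), 2.11 for ABTB1 and 1.84 for ANXA2R (both in Molt-4). Both changes of ERVFRD-1, FCMR, KLF2 and FBXO32 in the pair lay above all other lines. For KLF2 the margin was small, with 1.70 and 1.72 in the pair. Its changes elsewhere ran from -0.225 in HPB-ALL to 1.59 in Molt-4. None of these genes passed the test of the response difference given below. The calls of RGS1, KLF2 and FBXO32 were lost when either line was left out with the spread of the remaining 6 lines (adjusted p 0.059 to 0.13), and that of ANXA2R without P12-ICHIKAWA (0.19), without the block (0.18) or after quantile normalization (0.055). When the probe sets of a gene were averaged, the calls of FBXO32 and USH1C were lost (adjusted p = 0.078 and 0.075, limma).

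The third comparison tested whether these changes differed from those of the other 5 lines, with the mean change of the pair against 1 change per line. IL10, the anti-inflammatory cytokine interleukin 10, was the 1 gene called (0.00506% of all genes), and no gene was called in the other direction. At an unadjusted p under 0.05, 331 genes were more positive and 263 more negative in the pair. Both changes lay above those of the 5 other lines in 1293 genes (6.54%) and below them in 1173 (5.93%).

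IL10 rose from 6.28 to 8.14 in P12-ICHIKAWA and from 6.20 to 7.76 in TALL-1. In the other lines it was at 4.01 to 5.24 and its changes were -0.07 in CCRF-CEM, -0.16 in HPB-ALL, -0.22 in Jurkat, 0.04 in Molt-4 and 0.09 in ALL-SIL. The 4 arrays thus lay above the 10 others before and after treatment, and both changes lay apart from the rest. Levels of IL10 in the other lines were near the floor, which limits its changes there. The spread of the test came from those changes (SD 0.13). The difference between the responses was 1.77 ± 0.18 (SE; adjusted p = 0.0079, limma, 5 other lines), and IL10 stayed called without any 1 of the 7 lines (adjusted p 0.0011 to 0.038). It was not called with an offset of 4 (adjusted p = 0.65) or without the pairing of the arrays of a line (adjusted p = 1). One probe set of the array names IL10 alone.

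The promoters of 3 genes of the response comparison are printed from RefSeq (GRCh38.p14) around the start and on the strand of the gene, because IL10 was the called gene, GFRA4 both marked the pair and rose in it, and ANKRD37 fell and holds an E-box. Capitals mark a CACGTG E-box, the site of MYC and related factors, or a GTAAACA forkhead site, on either strand.
IL10 (chr1:206772445-206772744, minus strand): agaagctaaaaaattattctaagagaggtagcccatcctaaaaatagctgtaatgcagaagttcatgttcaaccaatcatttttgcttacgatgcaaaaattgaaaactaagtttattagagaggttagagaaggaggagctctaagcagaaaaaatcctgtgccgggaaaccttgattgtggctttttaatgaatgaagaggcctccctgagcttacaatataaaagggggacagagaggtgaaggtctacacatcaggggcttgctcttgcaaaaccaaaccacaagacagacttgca
GFRA4 (chr20:3663350-3663649, minus strand): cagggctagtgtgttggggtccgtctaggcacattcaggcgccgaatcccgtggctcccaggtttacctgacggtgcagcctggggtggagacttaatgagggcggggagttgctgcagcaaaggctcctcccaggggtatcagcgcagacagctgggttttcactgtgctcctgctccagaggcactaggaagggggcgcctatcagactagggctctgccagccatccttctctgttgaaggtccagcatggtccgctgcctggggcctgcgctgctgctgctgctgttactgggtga
ANKRD37 (chr4:185396591-185396890, plus strand): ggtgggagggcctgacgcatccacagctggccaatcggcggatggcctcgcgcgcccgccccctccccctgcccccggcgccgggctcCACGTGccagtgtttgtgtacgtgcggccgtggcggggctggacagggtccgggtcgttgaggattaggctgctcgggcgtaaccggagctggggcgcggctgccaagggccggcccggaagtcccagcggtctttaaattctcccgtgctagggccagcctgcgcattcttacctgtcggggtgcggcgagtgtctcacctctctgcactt
Neither motif was found in these windows of IL10 and GFRA4. Of the 10 genes with the largest positive response difference without overlap 8 had a promoter in the table, of which 1 held the E-box (INTS6-AS1) and 1 the forkhead site (MIX23), and of the 10 with the largest such negative difference 6 had one, of which 1 held the E-box (ANKRD37) and 0 the forkhead site. Over all promoters listed, 7.43% held the E-box and 3.41% the forkhead site, and among genes measured here 8.9% and 2.62%. In the genes called lower within the pair 52 of 242 promoters held the E-box (21.5%) and 4 the forkhead site (1.65%). In the genes called higher 49 of 363 held the E-box (13.5%) and 21 the forkhead site (5.79%). A match is a description of letters and not of binding.

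A further set of genes responded apart from the other lines without passing the adjusted test. GFRA4 rose by 1.17 and 1.32 in P12-ICHIKAWA and TALL-1, while its changes elsewhere were -0.10 to 0.43 at levels near the floor (difference 1.18 ± 0.21, SE; adjusted p = 0.22, limma). FCMR rose by 2.11 and 1.69 against 0.43 to 0.99 in the other lines (adjusted p = 0.20), and ERVFRD-1 by 2.58 and 1.84 against 0.00 to 1.08 (adjusted p = 0.21). INTS6-AS1, an antisense RNA, rose by 0.90 and 1.41 against -0.23 to 0.08 (adjusted p = 0.12). EGR1, an immediate early transcription factor, rose by 1.21 and 1.96, with changes from -1.58 to 0.42 in the other lines. FBXO32 rose by 1.70 and 1.62 against -0.64 to 1.13. CSPG5, MIX23 and SLIT3-AS1 changed by 0.16 to 1.2 in the pair and were not called within it, and their changes in the other lines reached down to -4.63 (CSPG5), -1.60 (MIX23) and -0.62 (SLIT3-AS1). In the pair MIX23 (4.21 to 4.87) and SLIT3-AS1 (4.0 to 5.20) lay near the floor.

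In the other direction GDF10 fell by 1.58 in P12-ICHIKAWA and by 1.43 in TALL-1, with changes of -0.40 to 0.09 elsewhere (difference -1.38 ± 0.20, SE; adjusted p = 0.10, limma). USH1C fell by 1.53 and 1.05 while it changed by 0.08 to 1.47 in the other lines. NDRG1, a stress-induced gene, was at 8.49 and 8.43 in P12-ICHIKAWA and at 8.15 and 8.37 in TALL-1, with changes of 0.49 to 1.47 in the other lines. TP53INP1, a p53 target, changed by 0.21 and -0.54 against 0.58 to 1.12. It lay near the floor in the pair (4.19 to 5.11, against 4.635 to 8.36 in the other lines), which limits its changes there. DMGDH, LRRCC1 and MIF-AS1 changed by -0.22 to -1.05 in the pair and reached 4.57, 1.83 and 0.76 in another line. With P12-ICHIKAWA and TALL-1 counted as 2 separate lines, 9 genes were called more positive, among them IL10, GFRA4, FCMR, ERVFRD-1, INTS6-AS1 and S1PR1, and 1 more negative, GDF10.

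**Figure D4:**
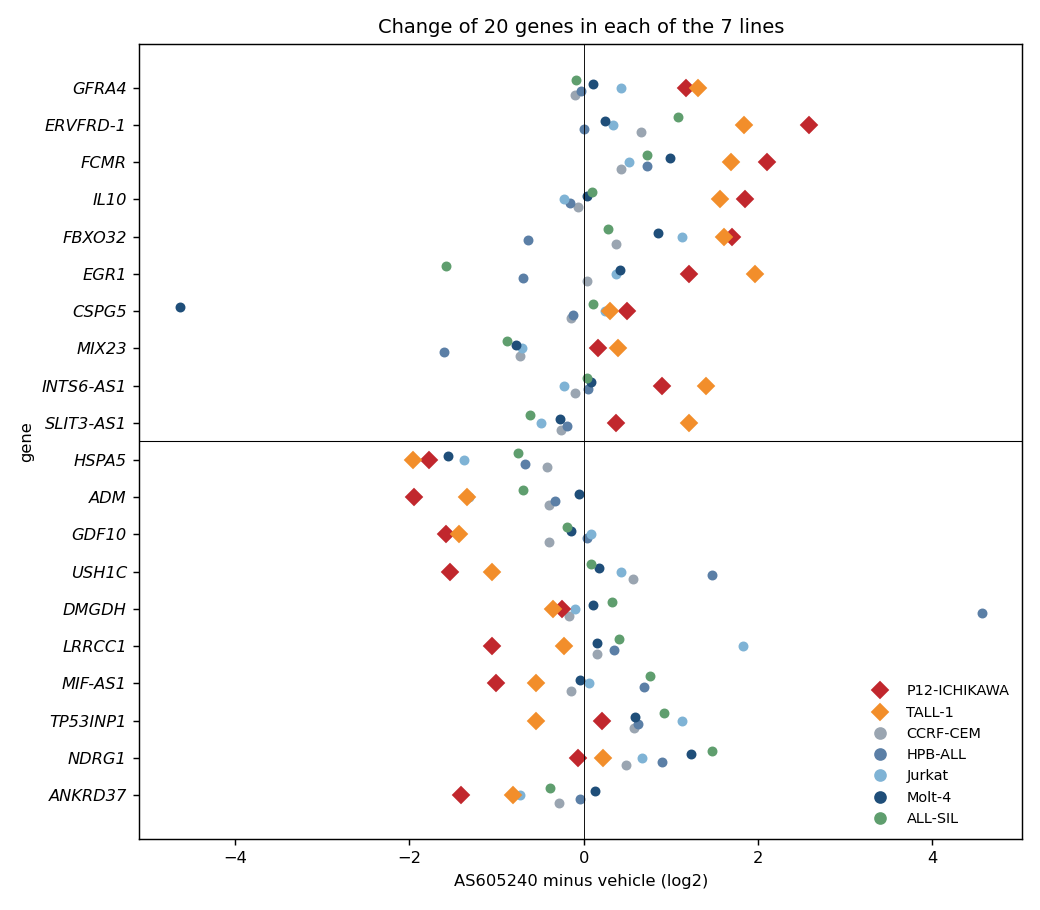
AS605240 minus vehicle (log2) in each of the 7 lines for IL10, the called gene, and the other genes with the largest positive (top) and largest negative response difference (bottom) among those whose 2 changes both lay beyond the 5 others, 10 genes each. Diamonds are P12-ICHIKAWA and TALL-1 and circles the other lines; for IL10 the circles lie between -0.22 and 0.09 and the diamonds at 1.56 and 1.86, and single circles far from the rest belong to CSPG5 (Molt-4) and DMGDH (HPB-ALL).

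Gene lists were then compared, each by the count of its measured members that passed an adjusted p under 0.05 within the pair (566 or 2.86% of all genes higher, 397 or 2.01% lower, with no threshold on the fold) and by its median change in every line. HIF1 targets, the genes turned on by hypoxia-inducible factor 1, had the lowest median of the mean change of the pair among the 25 lists, -0.52. The median was -0.50 in P12-ICHIKAWA and -0.49 in TALL-1, against -0.38 to -0.05 in the other lines and 0.02 over all genes in the pair. Of 19 measured members 10 fell and 1 rose. In 9 of the 19 both changes lay below those of the 5 other lines and in 1 above them, against 5.93% and 6.54% of all genes, which is also the background of the like counts for the lists that follow.

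Among these targets VEGFA, the angiogenic growth factor, fell from 9.49 to 8.61 in P12-ICHIKAWA and from 9.04 to 8.03 in TALL-1. BNIP3, a mitophagy receptor, fell from 10.51 to 9.89 and from 10.09 to 9.44 (-0.56 to 0.18 in the other lines). ANKRD37, whose promoter is printed above, fell from 8.51 to 7.10 and from 7.78 to 6.96 (-0.74 to 0.14). PDK1, which keeps pyruvate out of mitochondria, fell by 0.74, the collagen hydroxylase P4HA1 by 0.84, the oxygen sensor EGLN1 by 0.57 and the glucose transporter SLC2A1 by 0.54. MXI1, a MYC antagonist, was the member that rose, by 0.62. BNIP3L changed by -0.28 and -0.16 in the pair and by 0.24 to 0.54 elsewhere. In level the list stood high in the pair, with a median difference to the other lines of 0.62 over both treatments (-0.02 for all genes) and of 0.75 on the vehicle arrays. BNIP3L was at 10.81 to 11.21 against 9.10 to 10.16, and BNIP3 lay above the other lines too. None of the 19 was called in the response difference. Without the cell line block none of the 10 decreases passed, with an offset of 4 none passed, and without P12-ICHIKAWA or without TALL-1, with the spread of the remaining 6 lines, 0 and 4 passed.

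Chaperones of the endoplasmic reticulum had the next lowest median (-0.48), with -0.53 in P12-ICHIKAWA and -0.41 in TALL-1 against -0.35 to -0.20 elsewhere. Of 22 measured 11 fell and 1 rose, and in 8 both changes lay below those of the other lines. Beside HSPA5 and MANF, HSP90B1 fell by 1.07, SDF2L1 by 1.17, DNAJB11 by 0.96, CRELD2 by 0.79, the disulfide isomerases PDIA4 and PDIA3 by 0.75 and 0.68, and XBP1, a transcription factor of the unfolded protein response, by 0.87. ERN1 (IRE1), the sensor that splices XBP1, rose by 0.69. The change of MANF was -1.46 and -1.53 in the 2 lines against -1.03 to -0.28 in the others (adjusted p of the difference 0.9999, limma). Without P12-ICHIKAWA 5 members still fell and without TALL-1 6, with the spread of the remaining 6 lines.

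Glycolysis and glucose transport had medians of -0.38 and -0.25 against -0.20 to -0.04. Of 20 measured genes 4 fell and 6 lay below all other lines in both changes. Hexokinase HK2 fell by 0.86, the transporter SLC2A3 by 0.71 and the regulatory enzyme PFKFB3 by 0.55. The main glycolytic enzymes TPI1, PGAM1 and PKM changed by -0.47, -0.36 and -0.38 and did not pass.

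FOXO targets had the highest median of the lists (0.52), with 0.56 and 0.57 against 0.28 to 0.44 in the other lines. Of 28 measured 14 rose and none fell, and in 4 (KLF2, KLF6, S1PR1 and FBXO32) both changes lay above the other lines. The margin of KLF2 was small (1.70 and 1.72 against at most 1.59, in Molt-4). S1PR1, the receptor that lets T cells leave lymphoid organs, rose from 4.91 to 6.25 in P12-ICHIKAWA and from 5.29 to 6.42 in TALL-1, against changes of 0.08 to 0.44 in the other lines (difference 0.96 ± 0.18, SE; adjusted p = 0.29, limma). CCNG2 rose by 1.14, YPEL5 by 1.08 and TXNIP by 0.87, all within the range of the other lines. IRS2 and INSR, upstream of PI3K, rose by 1.17 and 0.67, and PIK3IP1, a PI3K inhibitor, by 0.67. With either line left out and the spread of the remaining 6 lines 4 members rose.

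In the PI3K and mTOR list 6 of 39 rose. PIK3CD, the leukocyte catalytic subunit, rose from 8.18 to 9.33 and from 8.16 to 9.40, against changes of 0.52 to 0.96 in the other lines, and PHLPP1, a phosphatase that acts on AKT, rose by 0.59. In 4 of the 39 both changes lay above the other lines (6.54% of all genes) and in 7 below them (5.93%), among the latter MTOR (-0.36), PIK3R3 (-0.48) and EIF4EBP2 (-0.41), none of which passed within the pair. Glucocorticoid receptor and induced genes had medians of 0.22 and 0.34 against -0.10 to 0.20, with 4 of 15 higher and 1 lower. TSC22D3 (GILZ), a classical glucocorticoid target, rose by 1.16 and 1.05 against -0.49 to 0.55, and DDIT4 was the member that fell, by 0.52.

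Ribosome biogenesis fell within the range of the other lines, with medians of -0.46 and -0.42 against -0.56 to -0.19. Of 76 measured genes 27 fell and none rose, among them RRS1 by 1.11, LYAR by 1.21 and BYSL by 0.94, and 3 lay below all other lines. Cytosolic heat shock proteins had medians of -0.17 and -0.14 against -0.29 to -0.09, with 6 of 17 lower, such as CHORDC1 by 1.01 and HSPA4 by 0.94. Cholesterol synthesis and uptake had medians of -0.33 and -0.10 against -0.57 to -0.05. There 5 of 27 fell, such as MSMO1 by 1.01 and HMGCS1 by 0.77, and 2 rose, SREBF1 by 0.80 (against -0.31 to 0.25 elsewhere) and NPC1 by 0.66. MYC itself changed by -0.08 in P12-ICHIKAWA and by -0.11 in TALL-1.

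The interferon list had 8 of 28 members higher and none lower. RSAD2 rose by 1.13, IFIT3 by 0.75 and IRF1, which induces interferon genes, by 0.68 (against -0.02 to 0.39 elsewhere). The list medians were 0.38 in P12-ICHIKAWA and 0.17 in TALL-1 against -0.01 to 0.24 in the other lines. Of 34 lysosome genes 6 rose, among them TFE3 by 0.83 and CLN3 by 0.66. Of 29 immediate early and ERK output genes EGR1 and DUSP6 (by 0.85) rose, and 6 lay above all other lines. Among lymphocyte genes RAG1 and DNTT, which act in receptor gene rearrangement, rose by 1.11 and 1.2, within or near the range of the other lines, THEMIS fell by 0.82 (against -0.39 to 0.26), and the complement receptor CR2 rose by 1.05 (against -0.28 to 0.80). LMO2 rose by 0.72 and 0.75, and its changes elsewhere ran from -0.88 to 0.15.

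In the G1/S list of 33 genes only the polymerase subunit POLA1 fell (by 0.64), while 6 genes lay below all other lines by small margins. Of the 29 G2/M genes 2 rose, with medians of 0.23 and 0.28 inside the range of -0.01 to 0.55. Of the T-cell stage and receptor genes 4 of 43 rose and 1 fell, and of the T-ALL transcription factors 3 of 39 rose. For Notch, p53 targets, BCL2 family, cell cycle inhibitors, MHC, cytokine receptors, adhesion and the MYC network at most 3 members of a list passed in any 1 direction. The ATF4 list had 5 of 30 lower and 2 higher, with medians of -0.26 and -0.18, within the wide range of the other lines (-0.90 to 0.10). The medians of both lines lay below all other lines for HIF1 targets, endoplasmic reticulum chaperones and glycolysis, and above them for FOXO targets, glucocorticoid-induced genes, immediate early genes, Notch receptors and targets, and cytokine receptors. Margins were small for immediate early genes (0.033 and 0.090 against at most 0.0), Notch genes (0.101 and 0.132 against 0.094) and cytokine receptors (0.094 and 0.084 against 0.052). The median level of the arrays rose by 0.064 and 0.091 in the 2 lines, and the median over all genes of the mean change of the pair was 0.02. Lists share genes, and none held a gene called in the response difference.

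**Figure D5:**
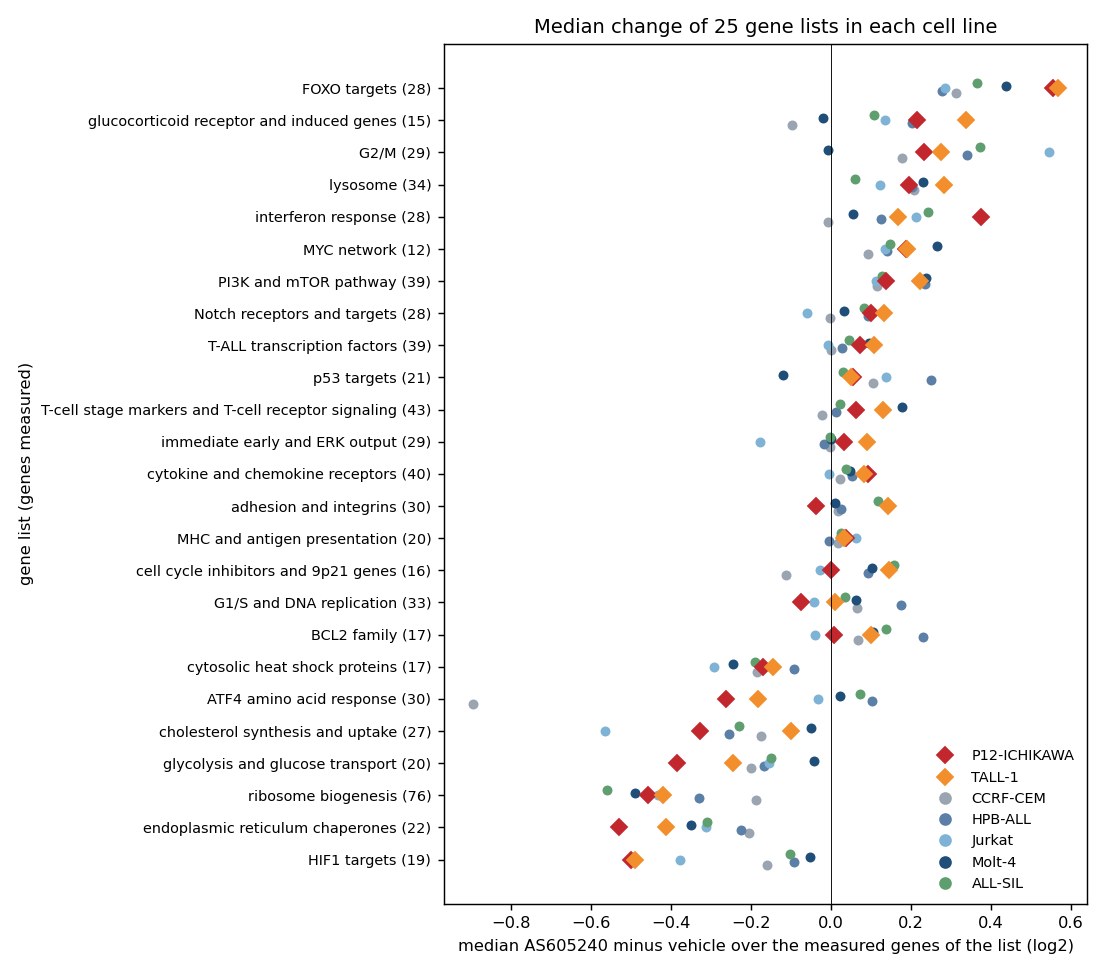
Median AS605240 minus vehicle (log2) over the measured genes of each of 25 lists (number of genes in parentheses) in each of the 7 lines. Diamonds are P12-ICHIKAWA and TALL-1; both lie left of all circles for HIF1 targets (-0.50 and -0.49) and right of all circles for FOXO targets (0.56 and 0.57).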

How the data were processed

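RNA of 7 T-ALL lines after 6 h with AS605240 or vehicle was hybridized to 14 arrays. The deposited values were made by the authors in Affymetrix Expression Console 1.3.1.187 with PLIER and are linear intensity, although log2 values had been assumed when the tests were set, so log2(intensity + 16) was taken. Of 54675 probe sets 41091 named 1 gene in the platform annotation, and the brightest was kept for each of 19775 genes. Differences were tested with limma 3.58.1 in R 4.3.3 with Benjamini-Hochberg adjustment over all genes, at an adjusted p of 0.05 and a fold of 2 (identity), a fold of 1.5 (own response) or no threshold on the fold (response difference), with arrays paired by cell line, since both arrays of a number come from the same line. Members, lists and tests were chosen with earlier results of these data known. Genes named were those with the largest differences that passed or did not overlap, up to 4 per list with the smallest p, and a fixed set of T-ALL genes. Others, such as the members of lists that moved, neighbours and TRIM44's window, were chosen after their values were seen. Offset, centring, quantile normalization, a filter on dim genes, the mean of probe sets, the pairing and each line left out were tried. Precision is limited by how few arrays there were. The fits were tested on simulated data.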

Additional observations from a re-analysis of the deposited data

Results flagged for a closer look

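IL10 had a response in P12-ICHIKAWA and TALL-1 that differed from that of the other 5 lines by 1.77, in a test of the difference itself. Its levels in those 5 lines were near the floor, which limits its changes there.

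Single samples lay far from the other lines. FEZ1 was at 11.50 in Molt-4 with AS605240. CSPG5 changed by -4.63 in Molt-4, MIX23 by -1.60 and DMGDH by 4.57 in HPB-ALL, and LRRCC1 by 1.83 in Jurkat. The median change of the ATF4 list was -0.90 in CCRF-CEM and that of the immediate early list was -0.18 in Jurkat. Of 85 groups of 5 values tested 7 (8.24%) had such a sample. Chance gives about 1 in 20 for independent groups that were not chosen by their values. Most groups here were of genes chosen by the size of their differences, which a single extreme line can enlarge, and lists share genes. The share therefore cannot be set against that rate.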

How the results depend on the processing

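In identity the 9 higher genes became 28 with P12-ICHIKAWA and TALL-1 as 2 separate lines and 7 to 12 with a line left out. The 1 lower gene became 3 with an offset of 4, 0 with the mean of probe sets or the AS605240 arrays, 53 with 2 separate lines and 0 to 3 with a line left out (0 without HPB-ALL or Molt-4, 3 without ALL-SIL). In the own response the counts of 461 higher and 290 lower became 0 and 0 with an offset of 4, and 174 and 169 with an offset of 64. Lower genes numbered 456 after centring and 179 with the mean of probe sets. Without the replicate block the counts were 182 and 97. With P12-ICHIKAWA or TALL-1 left out, settings chosen after seeing the data that assume the lone line to vary like the others, 121 to 194 were higher and 41 to 165 lower. In the response difference the 1 more positive gene became 0 with an offset of 4 or without the replicate block, 3 with an offset of 64, 9 with 2 separate lines and 1 to 11 with a line left out (11 without P12-ICHIKAWA, 7 without TALL-1). More negative genes numbered 0, 1 with 2 separate lines and 0 to 3 with a line left out (3 without P12-ICHIKAWA, 2 without TALL-1). The difference of BIK, an apoptosis gene, turned from -0.36 to 0.19 without P12-ICHIKAWA and was -0.90 without TALL-1. BIK changed by -1.28 in P12-ICHIKAWA and by -0.19 in TALL-1, against a mean of -0.38 in the other lines. The reason for the gap between the 2 lines was not tested. Levels near the floor of 4 have no order, so their differences are limited by signal.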
